A study of Mus musculus with 12 samples.

Results

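The genes encoding the leukaemia inhibitory factor (LIF) and interleukin-6 receptors, their signal transducer Stat3 and the Socs feedback inhibitors were followed in adult mouse neural stem cells (NSCs) held in 3 media. The rows of the count table whose symbol was Lif, Lifr, Osmr, Cntfr, Il6st, Stat3, Socs1, Socs2, Socs3 or Socs5 were taken, which gave 10 genes of 17365, and all 10 were among the 13312 genes that passed the expression filter. The rule reads the symbols and no measured value, although the genes were chosen with earlier results of these data known. Bulk RNA-seq covered 12 libraries from 2 lines grown from the subventricular zone of adult mice aged 6 to 8 weeks and used below passage 10. The ANS4 line came from the MF1 strain and the BL6 line from C57BL/6, so that line and strain cannot be told apart. The study describes BL6 as a wild-type line without reporter transgenes, and the labels name no genotype for either line. Cells of each line were kept for 3 days in EGF with FGF2 (EGF/FGF, proliferating NSCs), in BMP4 alone (BMP, d-qNSCs) or in BMP4 with FGF2 (BMP/FGF, p-qNSCs), and each factor was given at 10 ng/ml in the same serum-free medium with N2, B27 and laminin. Each condition held 4 libraries, 2 replicates of each line. The study calls them biological replicates, but no source used here says whether they were separate cultures, so the p-values measure the spread among these libraries, which may be technical.

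LIF, oncostatin M and ciliary neurotrophic factor belong to a cytokine family that signals through the shared receptor gp130, encoded by Il6st. The ligand brings gp130 together with a partner such as Lifr or Osmr, the Janus kinases bound to these chains phosphorylate Stat3, and Stat3 moves to the nucleus and turns on genes that include Socs3, whose protein then inhibits the receptor complex. In neural precursors the pathway is best known for promoting astrocyte genes such as Gfap, together with BMP signaling.

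All libraries were of similar depth, with 18069052 to 19451818 estimated counts. Levels are given as CPM, counts scaled by TMM to one common library size, on which 1 count was worth 0.0517 to 0.0559 CPM. Values of single libraries are given in the order ANS4 replicate 1, ANS4 replicate 2, BL6 replicate 1 and BL6 replicate 2. Markers of the labelled cell type were present in every library. The 10 neural stem cell markers summed to 7670 to 8312 CPM with EGF/FGF, 9385 to 10723 with BMP and 11407 to 12003 with BMP/FGF, with none at 0. These sums hide opposite changes, and in BMP they rest mostly on Vim and Slc1a3, with means of 4687 and 3058 CPM. In BMP 6 of the 10 were called higher than in EGF/FGF and 4 lower, against 40.8% and 38.8% of all tested genes. Mean levels of Nes fell from 569 to 126 CPM and of Fabp7 from 2410 to 476, whereas Slc1a3 rose from 1182 to 3058. Microglia and macrophage markers (7 of 12 found in the table) summed to at most 19.2 CPM and endothelial markers (5 of 7) to at most 47.4, whereas 8 astrocyte markers summed to 2018 to 2483, 6020 to 7811 and 9577 to 9850 CPM in EGF/FGF, BMP and BMP/FGF. Markers of neurons and neuroblasts (7 of 7) summed to 16.1 to 20.4 CPM in EGF/FGF, 103.7 to 112 in BMP/FGF and 316 to 649 in BMP, where the ANS4 libraries had 316 and 322 and the BL6 libraries 644 and 649. Oligodendrocyte markers (6 of 6) reached 175 to 221, 627 to 669 and 692 to 714 CPM and ependymal markers (4 of 5) 62.5 to 82.7, 192 to 229 and 196 to 203, while fibroblast and pericyte markers (6 of 7) stayed at or below 6.48. The part of these cell types in the results was not tested, and in bulk RNA fewer cells of a type and less RNA per cell cannot be told apart.

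The promoter windows of the genes, from 250 bases before to 50 bases after the RefSeq start site on GRCm38.p6, were searched for TTCNNNGAA, the palindromic letters that Stat proteins are known to bind, which read the same on both strands. Windows of 8 of the 10 genes were read (all but Socs2 and Socs5), 14 in all. The letters were present in 1 of these 14 windows, that of Socs3, against 8.30% of all 32851 windows and 9.55% of the 27025 genes that have one. The Socs3 window, chr11:117969317-117969616 on the minus strand, is shown because it holds the match, and the Osmr window, chr15:6874264-6874563 on the minus strand, because Osmr had the largest change of the 10 genes and no match. The capitals mark TTCTTAGAA, which begins 154 bases before the start site of Socs3.
Socs3: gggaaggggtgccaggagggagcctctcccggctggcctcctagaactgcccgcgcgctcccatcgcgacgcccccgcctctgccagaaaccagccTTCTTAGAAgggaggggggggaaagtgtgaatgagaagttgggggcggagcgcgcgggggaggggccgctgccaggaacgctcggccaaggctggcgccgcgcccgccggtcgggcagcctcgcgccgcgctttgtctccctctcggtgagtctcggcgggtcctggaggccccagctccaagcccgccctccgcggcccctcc
Osmr: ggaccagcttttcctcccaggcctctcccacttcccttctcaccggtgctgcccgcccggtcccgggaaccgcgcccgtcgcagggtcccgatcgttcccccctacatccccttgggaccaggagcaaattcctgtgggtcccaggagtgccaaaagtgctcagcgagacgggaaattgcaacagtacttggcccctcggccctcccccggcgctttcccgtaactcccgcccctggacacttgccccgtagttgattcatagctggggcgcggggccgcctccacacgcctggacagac
A match is a description of the letters in the window and not a measured binding site.

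Which genes of the pathway differ between proliferating NSCs and NSCs made quiescent by BMP was examined first. With BMP, 8 of the 10 genes lay above their EGF/FGF level (Lifr, Osmr, Cntfr, Il6st, Stat3, Socs1, Socs2 and Socs3) and 2 were lower (Lif and Socs5), by edgeR's quasi-likelihood test with Benjamini-Hochberg adjustment over all tested genes. Of all tested genes, 40.8% were called higher and 38.8% lower, so that a call by itself was common in this comparison. Past an absolute log2 fold change of 1.5 were 5 of the 10 genes (Lif, Osmr, Il6st, Socs2 and Socs3), against 17.8% of all tested genes. The median log2 fold change of the 10 genes was 0.79 and that of all tested genes 0.02, and the medians without sign were 1.40 and 0.61. The CPM of the BMP and EGF/FGF libraries did not overlap for any of the 10 genes, as was the case for 71.1% of all tested genes.

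**Figure D1:**
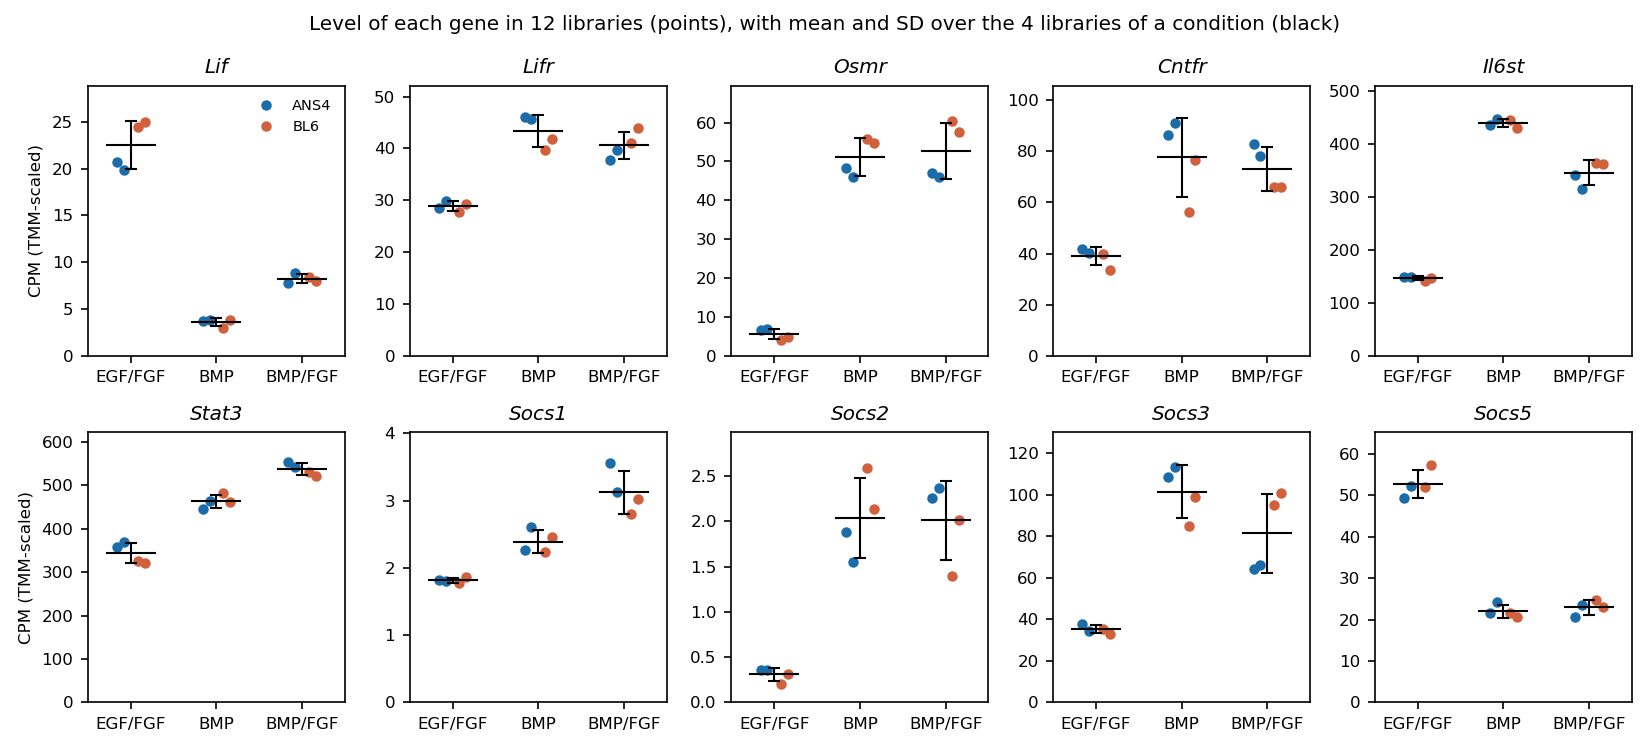
Level of each of the 10 genes in CPM (y axis, from 0) in the 3 conditions (x axis); points are the 12 libraries, blue for ANS4 and orange for BL6, and black lines the mean and SD of 4 libraries. The receptors, Stat3, Socs1, Socs2 and Socs3 are lowest in EGF/FGF, whereas Lif and Socs5 are highest there.

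Among ligands, Lif (ENSMUSG00000034394, chr11:4257557-4272514 in GENCODE vM21 on GRCm38), which encodes LIF itself, stood at 20.7, 19.9, 24.5 and 25.0 CPM in EGF/FGF, at 3.75, 3.82, 3.01 and 3.86 CPM in BMP and at 7.81, 8.89, 8.38 and 7.99 CPM in BMP/FGF. The 3 conditions were fully separated, and BMP/FGF lay between the others in every library. Lif fell by 2.64 on the log2 scale in BMP (SE 0.11, adjusted p = 3.44e-13), a 6.22-fold lower level, and was the largest fall among the 10 genes. It was 2.29-fold higher in BMP/FGF than in BMP (log2 1.20, SE 0.12, adjusted p = 6.73e-07).

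The receptor chains all rose with BMP but by different amounts. Osmr (chr15:6813577-6874969), which pairs with gp130 to bind oncostatin M, had 6.57, 6.98, 4.22 and 4.80 CPM in EGF/FGF, 48.2, 45.9, 55.8 and 54.8 in BMP and 47.0, 45.9, 60.3 and 57.5 in BMP/FGF. No EGF/FGF library came near the others, and the BMP and BMP/FGF libraries overlapped each other. Its log2 fold change was 3.17 in BMP (SE 0.13, adjusted p = 3.13e-13) and 3.21 in BMP/FGF (SE 0.13, adjusted p = 2.60e-13), 9.01-fold and 9.26-fold. Ranked by absolute log2 fold change among the 13312 tested genes, Osmr was 494th and 451st in these 2 comparisons.

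Il6st (chr13:112464070-112510086), the gp130 chain shared by the family, had 149, 148, 141 and 147 CPM in EGF/FGF, 436, 446, 445 and 430 in BMP and 341, 315, 364 and 362 in BMP/FGF. As for Lif, the 3 conditions did not overlap and BMP/FGF lay between the other conditions. The rise in BMP was 1.59 on the log2 scale (SE 0.06, adjusted p = 6.18e-14), or 3.00-fold, and the level in BMP/FGF fell by 0.35 from that in BMP (SE 0.06, adjusted p = 1.25e-04). Relative to EGF/FGF, the BMP/FGF level stayed higher by 1.24 (SE 0.06, adjusted p = 1.58e-12).

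Lifr (chr15:7090614-7197489), the chain that binds LIF, had the smallest rise of the 4 receptor chains. Its levels were 28.5, 29.9, 27.7 and 29.3 CPM in EGF/FGF, 46.1, 45.7, 39.8 and 41.9 in BMP and 37.8, 39.7, 41.0 and 44.0 in BMP/FGF. Every quiescent library lay above every EGF/FGF library, and the BMP and BMP/FGF libraries overlapped. The log2 fold change was 0.59 in BMP (SE 0.07, adjusted p = 5.89e-07) and 0.49 in BMP/FGF (SE 0.07, adjusted p = 5.48e-06), each against EGF/FGF.

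Cntfr (chr4:41657498-41697089), which encodes the chain that binds ciliary neurotrophic factor and has no signaling domain of its own, had 41.8, 40.2, 40.0 and 33.8 CPM in EGF/FGF, 86.4, 90.9, 56.3 and 76.8 in BMP and 82.8, 78.1, 65.9 and 65.9 in BMP/FGF. Both quiescent conditions lay above EGF/FGF in every library, and BL6 BMP replicate 1 was the lowest of the quiescent libraries. The rise was 0.98 on the log2 scale in BMP (SE 0.09, adjusted p = 9.94e-09) and 0.91 in BMP/FGF (SE 0.09, adjusted p = 3.44e-08).

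Stat3 (chr11:100885098-100939540), the transcription factor activated by gp130, had 358, 369, 327 and 321 CPM in EGF/FGF, 445, 464, 481 and 461 in BMP and 553, 541, 531 and 522 in BMP/FGF. It rose in steps that did not overlap. The log2 fold change was 0.43 in BMP (SE 0.06, adjusted p = 2.20e-06), a further 0.21 from BMP to BMP/FGF (SE 0.06, adjusted p = 0.00691) and 0.64 in BMP/FGF against EGF/FGF (SE 0.06, adjusted p = 1.21e-08). The exons of Stat3 share 72 bases, 0.8% of their length, with Stat5a on the opposite strand, and the other 9 genes share no exon bases with another gene in the annotation.

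The Socs genes encode inhibitors of cytokine receptors, and Socs3 (chr11:117966079-117970047) is the one that binds gp130. Its levels were 37.7, 34.3, 35.5 and 33.1 CPM in EGF/FGF, 109, 113, 84.7 and 98.6 in BMP and 64.1, 66.2, 94.8 and 100.6 in BMP/FGF. All quiescent libraries were above all EGF/FGF libraries, and in BMP/FGF the ANS4 libraries were the low pair. The log2 fold change was 1.53 in BMP (SE 0.13, adjusted p = 4.50e-09) and 1.20 in BMP/FGF (SE 0.13, adjusted p = 1.32e-07), each against EGF/FGF.

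Socs2 (chr10:95385362-95417180), best known as an inhibitor of growth hormone signaling, was scarce. It had 7, 7, 4 and 6 counts in EGF/FGF, 34, 28, 50 and 41 in BMP and 42, 44, 25 and 36 in BMP/FGF. The quiescent libraries were well above the EGF/FGF libraries and overlapped each other. The log2 fold change was 2.69 in BMP (SE 0.30, adjusted p = 1.59e-07) and 2.67 in BMP/FGF (SE 0.30, adjusted p = 2.05e-07), and its size rests on few counts in EGF/FGF.

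Socs1 (chr16:10782240-10785536), which inhibits Janus kinases directly, was also low, at 1.81, 1.81, 1.77 and 1.86 CPM in EGF/FGF, 2.26, 2.60, 2.23 and 2.45 in BMP and 3.56, 3.13, 2.79 and 3.02 in BMP/FGF. The groups did not overlap, although they were separated by few counts (34 to 36, 41 to 47 and 50 to 66 counts a library). The rise in BMP was 0.40 on the log2 scale (SE 0.16, adjusted p = 0.0310), and that call was kept in 14 of 22 alternative analyses, where the adjusted p ranged from 0.0120 to 0.198. In BMP/FGF the rise over EGF/FGF was 0.78 (SE 0.15, adjusted p = 1.69e-04).

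Socs5 (chr17:87107679-87137839), described as an inhibitor of EGF receptor and interleukin-4 signaling, moved against the other Socs genes. It had 49.4, 52.2, 51.9 and 57.3 CPM in EGF/FGF, 21.6, 24.1, 21.5 and 20.5 in BMP and 20.6, 23.4, 24.8 and 23.0 in BMP/FGF. The quiescent libraries lay below all EGF/FGF libraries and did not separate from each other. Socs5 fell by 1.26 on the log2 scale in BMP (SE 0.08, adjusted p = 5.02e-11) and by 1.20 in BMP/FGF (SE 0.08, adjusted p = 1.10e-10).

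**Figure D2:**
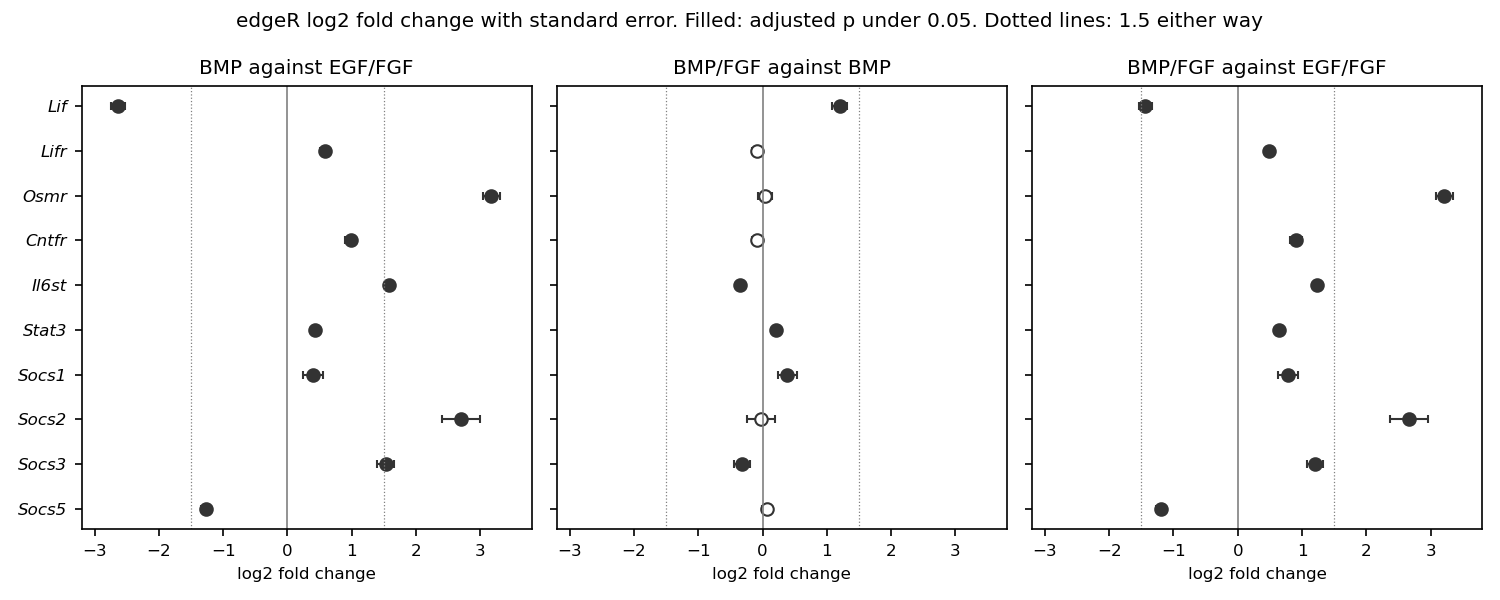
log2 fold change of each gene (x axis) with its SE in the 3 comparisons, from edgeR on 12 libraries; filled points have an adjusted p under 0.05 and dotted lines mark 1.5 either way. Osmr and Socs2 lie far to the right against EGF/FGF and near 0 between BMP/FGF and BMP, where only Lif exceeds 1.

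Whether FGF2 in the presence of BMP4 changes the pathway was examined by comparing BMP/FGF with BMP. The call was higher in BMP/FGF for 3 of the 10 genes (Lif, Stat3 and Socs1) and lower for 2 (Il6st and Socs3), against 20.1% of all tested genes called higher and 21.3% lower. None of the 10 genes passed a log2 fold change of 1.5, against 1.59% of all tested genes. The median log2 fold change was 0.01 over the 10 genes and -0.0035 over all tested genes, and without sign 0.15 against 0.20. Libraries did not overlap between the conditions for Lif, Il6st, Stat3 and Socs1, 4 of the 10, while 35.6% of all tested genes were so separated. Lif was the one gene of the 10 with a difference above 2-fold. The call of Socs1 (log2 0.39, SE 0.15, adjusted p = 0.0469) was kept in 2 of 22 alternatives (adjusted p from 0.0379 to 0.281) and that of Socs3 (log2 −0.33, SE 0.12, adjusted p = 0.0437) in 10 of 22 (from 4.67e-07 to 0.415). The remaining 5 genes had values of −0.09 (Lifr, SE 0.07), 0.04 (Osmr, SE 0.11), −0.08 (Cntfr, SE 0.09), −0.03 (Socs2, SE 0.22) and 0.06 (Socs5, SE 0.08) with adjusted p from 0.309 to 0.936. Of these, Lifr was lower in ANS4 alone (−0.24, SE 0.07, adjusted p = 0.0166), and Cntfr was lower without BL6 BMP replicate 1 (−0.18, SE 0.07, adjusted p = 0.0449). Stat3 lost its call in BL6 alone (0.16, SE 0.06, adjusted p = 0.0602).

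In the third comparison, BMP/FGF against EGF/FGF, the directions were those seen with BMP alone, with 8 of the 10 genes higher and 2 lower, against 40.9% and 38.0% of all tested genes. The 2 comparisons share the EGF/FGF libraries. Past 1.5 on the log2 scale were Osmr and Socs2, 2 of the 10 genes, against 16.7% of all tested genes, since Lif (−1.44, SE 0.10, adjusted p = 3.50e-10), Il6st and Socs3 lay under it. The median was 0.84 against 0.02 for all tested genes, and without sign 1.20 against 0.59. The libraries of the 2 conditions did not overlap for any of the 10 genes or for 75.8% of all tested genes.

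Differences between the lines were tested with an interaction of line and condition. For BMP against EGF/FGF the test called 1 of the 10 genes (Osmr), against 9.02% of all tested genes. For BMP/FGF against BMP it called Socs3 alone (13.5% of all tested genes), and for BMP/FGF against EGF/FGF it called Osmr and Socs3 (4.98% of all tested genes). For BMP/FGF against BMP, Socs2 had values of opposite sign, 0.43 in ANS4 alone (SE 0.26) and −0.47 in BL6 alone (SE 0.28). Its line difference of −0.91 (SE 0.37) was not called (adjusted p = 0.111). The values of the 3 comparisons are not independent of each other, as each pair shares a condition.

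Osmr rose more in BL6 than in ANS4, by 0.82 on the log2 scale in BMP (SE 0.15, adjusted p = 0.00241) and by 0.93 in BMP/FGF (SE 0.15, adjusted p = 0.00176). Within ANS4 alone the rise was 2.79 in BMP and 2.78 in BMP/FGF (SE 0.09 each), and within BL6 alone it was 3.60 and 3.69, each with an SE of 0.11. The BL6 libraries were the lower pair in EGF/FGF and the higher pair in both quiescent conditions. The line difference kept an adjusted p under 0.05 in all 18 alternatives of either comparison.

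Socs3 differed between lines in its answer to FGF2. Within ANS4 alone it was lower in BMP/FGF than in BMP by 0.77 on the log2 scale (log2 fold change −0.77, SE 0.06, adjusted p = 4.67e-07), whereas within BL6 alone the value was 0.10 (SE 0.09, adjusted p = 0.415). The difference between the lines was 0.86 (SE 0.11, adjusted p = 1.57e-04), and it kept an adjusted p under 0.05 in all 18 alternatives. Against EGF/FGF the rise in BMP/FGF was 0.85 in ANS4 (SE 0.07) and 1.496 in BL6 (SE 0.09), with a line difference of 0.66 (SE 0.12, adjusted p = 0.00420). Markers of other cell types differed between lines as well. For BMP/FGF against BMP, 6 of 8 astrocyte markers had a line difference in the direction of Socs3, from 0.37 (Glul) to 0.58 (Aqp4), and 4 of 5 tested neuron and neuroblast markers had one in the opposite direction, from −0.93 (Tubb3) to −1.498 (Gad1). Of all tested genes, 13.5% had a line difference in either direction in this comparison. The remaining astrocyte markers, Gfap and S100b, had values against the direction of Socs3 that the interaction test did not call. These were −0.28 for Gfap (adjusted p = 0.0782) and −0.44 for S100b (adjusted p = 0.424). For BMP against EGF/FGF the counts were 2 of 8 (Gfap 0.78, Gja1 −0.74) and 3 of 5, against 9.02% of all tested genes. For BMP/FGF against EGF/FGF they were 5 of 8, each with a larger rise in BL6, and 0 of 5, against 4.98% of all tested genes. The part of these cell types in the line differences of Osmr and Socs3 was not tested. BL6 BMP replicate 1 and replicate 2 differed most among replicate pairs, with a chi-square per gene of 13.1 against 2.19 to 4.99 in the other 5 pairs.

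**Figure D3:**
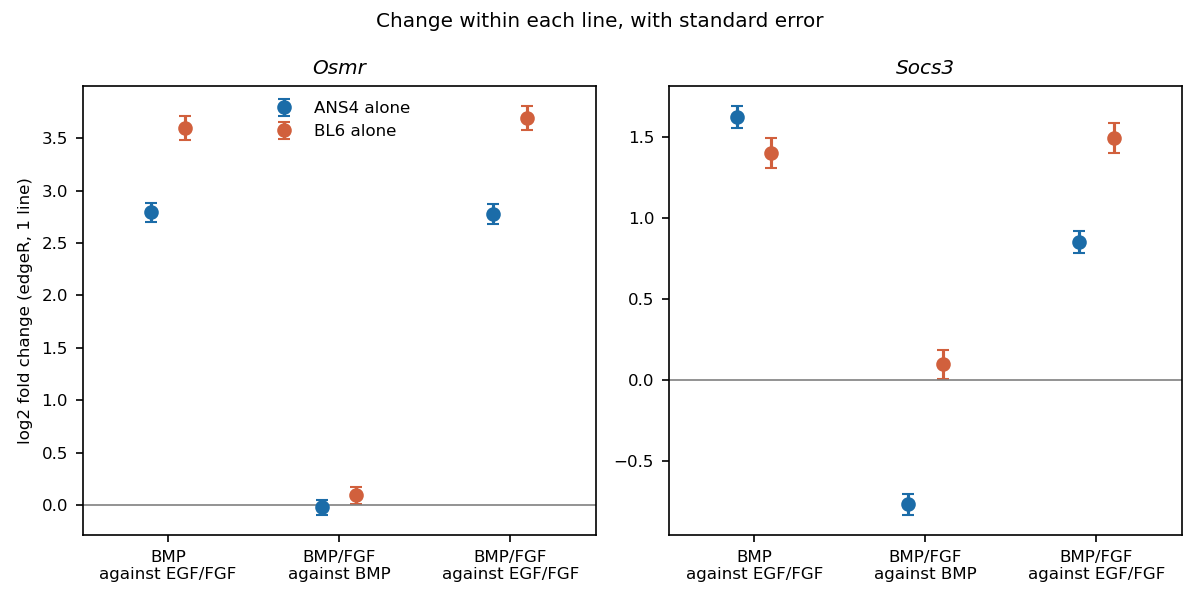
log2 fold change (y axis) of Osmr and Socs3 in edgeR fits of ANS4 (blue) or BL6 (orange) alone, with SE, for the 3 comparisons (x axis). Osmr shows a larger rise in BL6 against EGF/FGF, and Socs3 lies at −0.77 in ANS4 and at 0.10 in BL6 between BMP/FGF and BMP.

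The balance among receptor chains was followed as the ratio of counts within a library, which does not depend on library scaling. For every 100 counts of Il6st there were 19.2, 20.1, 19.7 and 19.9 counts of Lifr in EGF/FGF, 10.6, 10.2, 8.93 and 9.73 in BMP and 11.1, 12.6, 11.2 and 12.2 in BMP/FGF. The Lifr share was thus lowest in BMP, with no overlap between conditions. For Osmr the counts per 100 of Il6st were 4.41, 4.70, 2.99 and 3.26 in EGF/FGF, 11.1, 10.3, 12.5 and 12.8 in BMP and 13.8, 14.6, 16.6 and 15.9 in BMP/FGF, so that relative to Il6st the counts of Osmr rose and those of Lifr fell from EGF/FGF to BMP, while the level of each gene was higher in BMP. In EGF/FGF every library had more counts of Lifr than of Osmr, whereas in BMP and BMP/FGF Osmr had more than Lifr in all 8 libraries. These are counts and not levels per length.

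On the log2 scale the Lifr to Il6st ratio fell by 1.00 and the Osmr to Il6st ratio rose by 1.62 from EGF/FGF to BMP, and each rose from BMP to BMP/FGF, by 0.26 and 0.39. Of 15 comparisons (5 ratios in 3 contrasts), 11 reached p = 0.0286 in a two-sided exact permutation test of 4 against 4 libraries, the smallest p this design allows, with an adjusted p of 0.0390 over the 15. Any full separation of the 2 groups gives this p. The CPM of single genes was so separated for 71.1% (BMP against EGF/FGF), 35.6% (BMP/FGF against BMP) and 75.8% (BMP/FGF against EGF/FGF) of all tested genes. Ratios of other gene pairs were not computed, so the count of 11 is not particular to these pairs. The Cntfr to Il6st ratio was lower in BMP than in EGF/FGF by 0.61, and its other 2 comparisons, 0.28 for BMP/FGF against BMP and −0.33 for BMP/FGF against EGF/FGF, had exact permutation p = 0.229 and 0.0857. That permutation does not hold the line fixed. Within each line, every BMP/FGF library had more counts of Cntfr per 100 of Il6st (24.3 and 24.8 in ANS4, 18.1 and 18.2 in BL6) than the BMP libraries (19.8 and 20.4, 12.7 and 17.9) and fewer than the EGF/FGF libraries (28.1 and 27.1, 28.4 and 22.9).

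For feedback, the counts of Socs3 per 100 counts of Stat3 were 10.5, 9.30, 10.9 and 10.3 in EGF/FGF, 24.4, 24.4, 17.6 and 21.4 in BMP and 11.6, 12.2, 17.8 and 19.3 in BMP/FGF. In ANS4 the BMP/FGF ratio lay close to the EGF/FGF ratio, while in BL6 it lay between 17.8 and 19.3, next to the BMP values. The log2 ratio rose by 1.09 in BMP and by 0.54 in BMP/FGF against EGF/FGF, and it differed by −0.55 between BMP/FGF and BMP (exact permutation p = 0.0857, adjusted p = 0.0989 over the 15 comparisons). For Socs2 the ratio to Stat3 rose by 2.29 in BMP and by 2.05 in BMP/FGF, from 0.0899 counts per 100 in EGF/FGF.

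**Figure D4:**
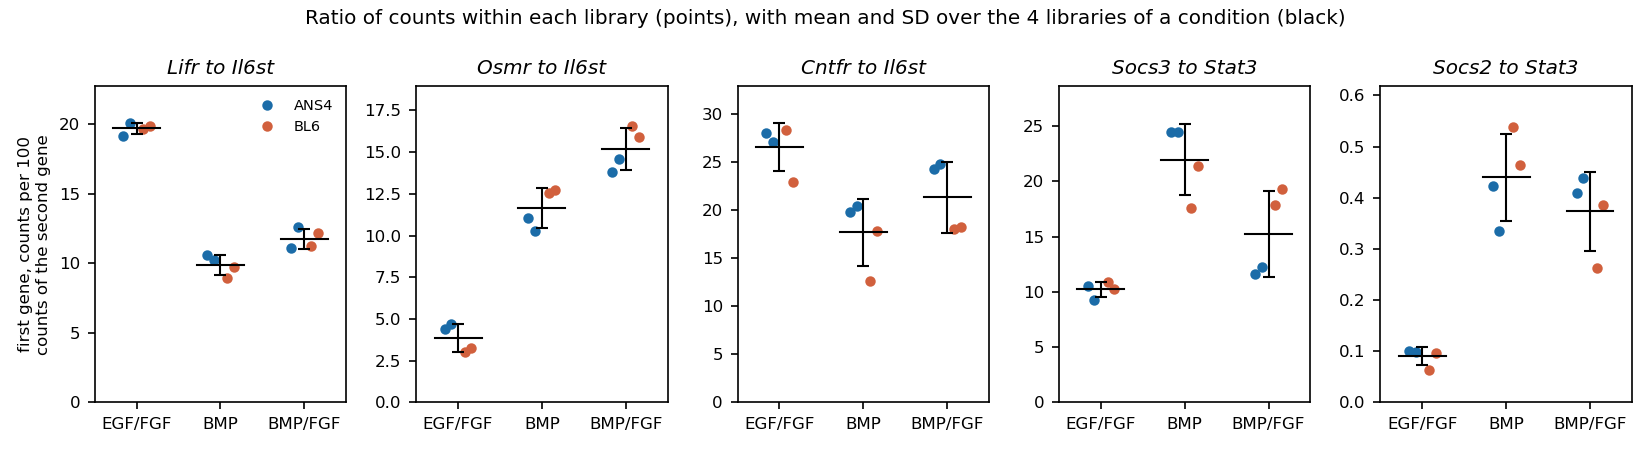
Counts of the first gene per 100 counts of the second (y axis, from 0) in each library, blue for ANS4 and orange for BL6, with mean and SD of 4 libraries in black, for 5 pairs and 3 conditions (x axis). Lifr to Il6st falls from about 20.1 or less to 12.6 or less in the quiescent conditions, Osmr to Il6st rises, and Socs3 to Stat3 in BMP/FGF splits by line.

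Levels between genes were set side by side as CPM per kilobase of annotated exon. Stat3 was the most abundant in every condition, at 36.1 ± 2.45 (SD, n = 4) in EGF/FGF, 48.6 ± 1.59 in BMP and 56.3 ± 1.42 in BMP/FGF. In EGF/FGF it was followed by Cntfr at 14.0 ± 1.26, Il6st at 13.2 ± 0.336 and Socs3 at 12.2 ± 0.688, whose ranges overlapped from one to the next, then by Socs5, Lif, Lifr, Socs1, Osmr and Socs2. In BMP the order was Stat3, Il6st (39.6 ± 0.693), Socs3 (35.1 ± 4.39), Cntfr (27.9 ± 5.52), Osmr (4.23 ± 0.403), Lifr (4.02 ± 0.282), Socs5 (3.42 ± 0.239), Lif (0.830 ± 0.0929), Socs1 (0.821 ± 0.0596) and Socs2 (0.214 ± 0.0462). Overlapping neighbours there were Il6st with Socs3, Socs3 with Cntfr, Osmr with Lifr, Lifr with Socs5 and Lif with Socs1. In BMP/FGF the order of the 10 genes was that of BMP. Osmr thus went from rank 9 of the 10 in EGF/FGF to rank 5. With the longest coding transcript as length, Osmr went from rank 8 to rank 5, and Socs2 was at rank 8 in BMP instead of 10. Stat3 remained first, Socs5 passed Lifr in both quiescent conditions and some other genes changed places.

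Other ligands of the family were counted from a list of 9, of which 5 were in the table and 3 were tested. In BMP, 2 of the 3 rose (Cntf and Ctf1) and 1 fell (Clcf1), and the same counts held for BMP/FGF against EGF/FGF. Of all tested genes, 40.8% rose and 38.8% fell in the former comparison, and 40.9% and 38.0% in the latter. Between BMP/FGF and BMP, Cntf was lower and the other 2 ligands were not called, where 20.1% of all tested genes were higher and 21.3% lower. The median log2 fold changes of the 3 were 0.77, −0.14 and 0.80 for BMP against EGF/FGF, BMP/FGF against BMP and BMP/FGF against EGF/FGF.

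Cntf, ciliary neurotrophic factor, was at 3.10 to 4.35 CPM with EGF/FGF, 119 to 138 with BMP and 40.7 to 51.4 with BMP/FGF, with a log2 fold change of 5.05 in BMP (SE 0.11, adjusted p = 1.19e-16) and of −1.44 from BMP to BMP/FGF (SE 0.08, adjusted p = 1.48e-09). The assignment of reads to Cntf is uncertain, as 78.9% of its exon bases also belong to Zfp91 on the same strand, which was at 244, 236 and 233 CPM in the 3 conditions with adjusted p from 0.338 to 0.845. Clcf1, a further ligand of the Cntfr complex, fell by 1.27 in BMP (SE 0.13, adjusted p = 6.26e-08), from 9.68 to 15.5 CPM down to 3.60 to 7.14. Cntf rose more in BL6 than in ANS4 in BMP/FGF against EGF/FGF, by 0.73 (adjusted p = 0.0267 for the line difference). Il6 had 0 or 1 count in every library, and Osm was not analysed here.

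Of the 3 further receptors, Il6ra and Il11ra1 were tested. Il6ra, the chain that binds interleukin-6, fell by 0.67 in BMP (SE 0.10, adjusted p = 5.17e-06) from 17.1 ± 3.06 (SD, n = 4) to 10.8 ± 2.55 CPM, and was at 8.81 ± 0.464 CPM in BMP/FGF. Il11ra1 rose by 1.13 in BMP (SE 0.19, adjusted p = 2.82e-05), from 2.07 ± 0.547 to 4.55 ± 0.590 CPM. Il6ra was thus the one tested receptor of the family that fell with BMP.

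Among Janus kinases and other Stat genes, 8 of 9 were tested, and 4 rose and 3 fell in BMP, where 40.8% of all tested genes were called higher and 38.8% lower. Jak1, the kinase most closely tied to gp130, rose from 144 ± 3.87 to 222 ± 15.2 CPM (log2 0.63, SE 0.06, adjusted p = 1.91e-08), whereas Jak2 fell from 198 ± 5.21 to 158 ± 16.4 CPM (log2 −0.33, SE 0.06, adjusted p = 9.77e-05) and Tyk2 by 0.33 (SE 0.09, adjusted p = 0.00292). Between BMP/FGF and BMP, 2 of the 8 were higher and 1 lower, against 20.1% and 21.3% of all tested genes. Stat5a rose by 1.08 in BMP (SE 0.15, adjusted p = 2.06e-06). In BMP/FGF against EGF/FGF, 4 of the 8 were higher and 1 lower, against 40.9% and 38.0% of all tested genes.

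The adaptors that link gp130 to the MAPK and PI3K pathways were called in 6 of 6 cases in BMP, with 4 higher and 2 lower, and a call was common over all tested genes too (40.8% higher and 38.8% lower). Gab1 had the largest change of the 6, from 107 ± 8.41 to 327 ± 29.2 CPM (log2 1.62, SE 0.08, adjusted p = 1.23e-12). Ptpn11, the phosphatase that shares its docking site on gp130 with Socs3, rose by 0.29 in BMP (SE 0.06, adjusted p = 1.37e-04). Between BMP/FGF and BMP, 0 of the 6 were higher and 3 lower, while BMP/FGF against EGF/FGF gave 2 rises and 2 falls. Of all tested genes, 20.1% were higher and 21.3% lower in the former comparison, and 40.9% and 38.0% in the latter. Of 11 other inhibitors of the pathway, 3 were higher and 2 lower in BMP, 1 higher and 4 lower between BMP/FGF and BMP, while BMP/FGF against EGF/FGF gave 2 rises and 4 falls. The shares of all tested genes beside these counts are those given for the adaptors. None of these 11 passed 2-fold in any comparison, and their median without sign was 0.23 in BMP, against 1.40 for the 10 genes.

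**Figure D5:**
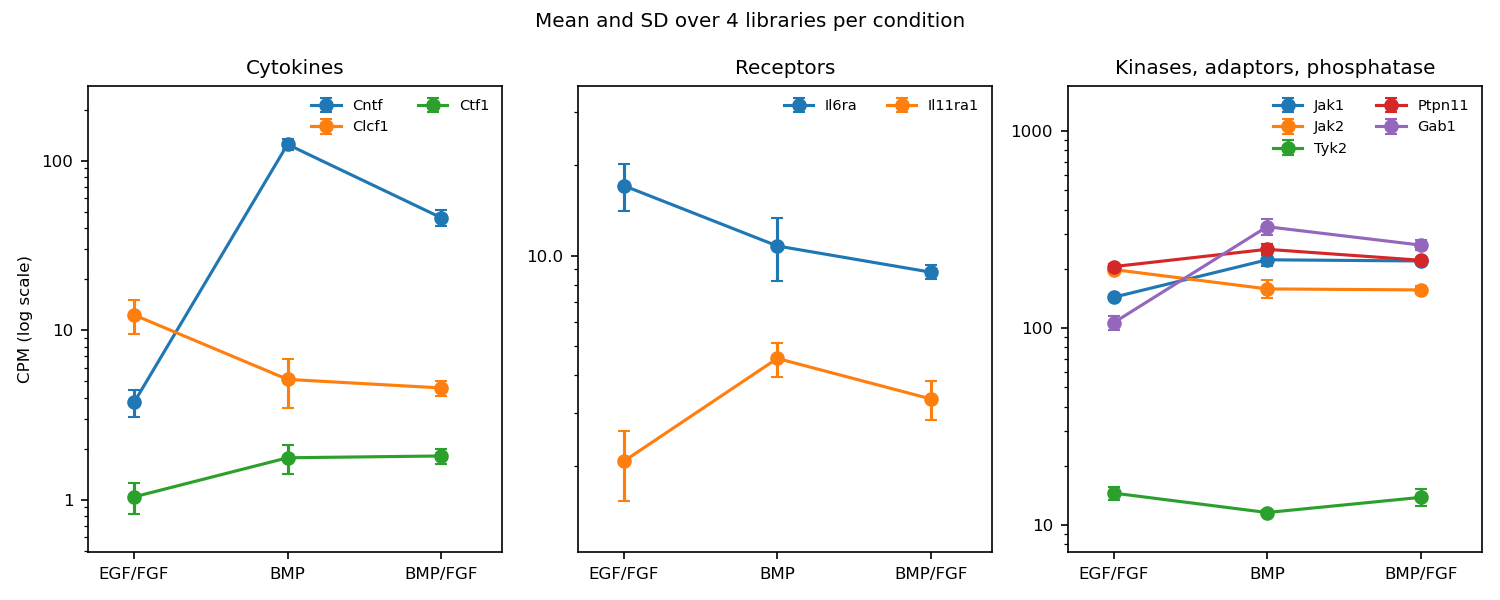
Mean and SD (4 libraries) in CPM on a log axis of cytokines, receptors, kinases and adaptors that work with the 10 genes, by condition (x axis). Cntf is higher and Clcf1 lower in both quiescent conditions, Il6ra is lower, and Gab1 and Jak1 are higher.

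Genes commonly described as Stat3 targets did not move in one direction. Of 20 listed and 19 tested, 8 were higher and 9 lower in BMP, 8 rose and 4 fell from BMP to BMP/FGF, and 8 rose and 6 fell from EGF/FGF to BMP/FGF, with medians of −0.15, 0.19 and 0.24. Calls in both directions were common over all tested genes too. In BMP 40.8% of them were higher and 38.8% lower. From BMP to BMP/FGF 20.1% rose and 21.3% fell, and from EGF/FGF to BMP/FGF 40.9% and 38.0%. The astrocyte filament gene Gfap rose from a range of 92.1 to 155 CPM in EGF/FGF up to 889 to 1108 with BMP and 1869.9 to 1980.1 with BMP/FGF (log2 3.04 in BMP, SE 0.12, adjusted p = 1.86e-13), and was higher by 0.97 in BMP/FGF than in BMP (SE 0.11, adjusted p = 3.47e-06). Serpina3n, an acute-phase protease inhibitor, rose from 0.841 ± 0.153 to 31.6 ± 2.74 CPM (log2 5.22, SE 0.12, adjusted p = 2.62e-16). The immediate-early gene Fos rose by 2.17 (SE 0.16, adjusted p = 6.75e-10), while Birc5, which acts in cell division, fell by 2.38 in BMP (SE 0.12, adjusted p = 5.64e-12) and by 3.31 in BMP/FGF (SE 0.14, adjusted p = 2.02e-13). In the list 7, 3 and 5 genes had a line difference in BMP against EGF/FGF, BMP/FGF against BMP and BMP/FGF against EGF/FGF, of 19 tested, against 9.02%, 13.5% and 4.98% of all tested genes, among them Fos and Gfap in the first. Gfap is also one of the 8 astrocyte markers, of which 7 were higher and 0 lower in BMP.

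The tested genes whose level ran most like that of Lifr, over 12 libraries after the mean of each line was removed, were Pm20d2, Camk2d and Frs2 (Pearson r 0.994, 0.989 and 0.988 on log2 CPM). For Stat3 they were Tmco6, Bfar and Nell2 (0.996, 0.995 and 0.994), which shared the rise in steps from EGF/FGF through BMP to BMP/FGF, with Nell2 at 37.8 ± 7.71, 89.1 ± 4.16 and 159 ± 5.03 CPM. For Socs3 they were Samd8, Adam23 and Urgcp (0.992, 0.989 and 0.988). These values are a description: the 12 points fall into 3 conditions, and the nearest 3 of all tested genes were picked.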

How the data were processed

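The authors trimmed reads with Trim Galore 0.5.0, estimated transcript abundance with kallisto 0.44.0 on mm10 and summarized it by gene. They deposited the estimated counts as whole numbers, and a second table of log2 values made by the regularized logarithm (rlog) of DESeq2 1.27.32, which was used here for 1 alternative. All per-sample columns were used.

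Counts passing filterByExpr were scaled by TMM and fitted with glmQLFit in edgeR 4.0.16 (R 4.3.3) on 12 libraries with condition and line as terms. Tests were two-sided (glmQLFTest) with Benjamini-Hochberg adjustment over 13312 genes and a threshold of 0.05, and 1.5 was the log2 fold threshold. SEs were taken from the F statistic. Line differences used an interaction term, and ratios an exact permutation test in scipy 1.17.1. Alternatives were DESeq2 1.42.0 size factors and Wald test, library size only, no filter, no line term, a replicate block, the 8 libraries compared, each line alone, limma-trend (3.58.1) on rlog, and each library left out. Scripts were tested on simulated data.

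The genes and lists were chosen with earlier results of these data known. All 10 genes are named. From other lists, direct partners and up to 4 genes past a log2 fold change of 1 are named, and Zfp91 was added after its overlap with Cntf was seen. Some genes of these lists are not reported here and were left out of the list counts. Depth gives the counting error only. Chi-square values compare replicate pairs over genes with at least 50 counts.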

Additional observations from a re-analysis of the deposited data

Results flagged for a closer look

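Among 30 sets of 4 libraries (10 genes in 3 conditions), 1 held a library far from the others, where chance gives about 1 in 20: Lif in BMP was lowest in BL6 BMP replicate 1, at 3.01 CPM against 3.75 to 3.86 CPM in the other 3. Of the BMP libraries, BL6 BMP replicate 1 was also the lowest for Lifr, Cntfr, Socs1 and Socs3 and the highest for Osmr, Stat3 and Socs2.

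The change differed between lines for 2 genes by the interaction test. Osmr rose more in BL6 by 0.82 on the log2 scale in BMP and by 0.93 in BMP/FGF. For Socs3 the log2 fold change of BMP/FGF against BMP was −0.77 in ANS4 alone and 0.10 in BL6 alone, a difference of 0.86 (BL6 minus ANS4), and its rise from EGF/FGF to BMP/FGF was larger in BL6 by 0.66.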

How the results depend on the processing

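With the 10 genes' values, counts and ratios recomputed under the alternatives, 1455 of 1552 stayed as they were, that is, with the same direction and side of the threshold, a count within 1.5 times or a ratio within its SD. The ratios with 1 library left out were bound to stay and say nothing about stability. Leaving out 1 of 4 libraries cannot move the mean difference by more than that SD. For BMP/FGF against BMP the 5 genes called became 3 with the replicate block and with only the 8 libraries compared, 2 with BL6 alone, and 3 to 5 with 1 library left out. The count was 3 without ANS4 BMP replicate 1 or 2, ANS4 BMP/FGF replicate 1 or 2, ANS4 EGF/FGF replicate 2, BL6 BMP replicate 2 or BL6 EGF/FGF replicate 1. Socs1 lost its call there without any 1 of the 12 libraries (log2 fold change 0.32 to 0.42), and Socs3 without those same 7 libraries (−0.44 to −0.22 over all 12). Socs1 in BMP against EGF/FGF lost its call without ANS4 BMP replicate 2, ANS4 EGF/FGF replicate 1 or 2, BL6 BMP replicate 2 or BL6 EGF/FGF replicate 1 (0.36 to 0.43 over all 12). For BMP/FGF against BMP, Stat3 lost its call in BL6 alone (0.16, adjusted p = 0.0602) and Cntfr gained one without BL6 BMP replicate 1 (−0.18, adjusted p = 0.0449). Limma-trend on rlog values, which shrink low counts, left 3 genes past 1.5 in BMP against EGF/FGF and 1 in BMP/FGF against EGF/FGF. The genes with a line difference were 1 to 3 with 1 library left out, for BMP against EGF/FGF and for BMP/FGF against BMP, and 3 in each without BL6 BMP replicate 2. All tested genes with a line difference ranged from 612 to 2437, 897 to 2833 and 184 to 1370 with 1 library left out, the highest without BL6 BMP replicate 1.

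Values that were not called changed sign under some alternatives. For BMP/FGF against BMP these were Osmr (−0.0064 with library size only, −0.0175 in ANS4 alone, −0.0227 to 0.0896 with 1 library left out), Socs2 (0.43 in ANS4 alone, −0.47 in BL6 alone, −0.17 to 0.13 with 1 library left out), Socs5 (−0.0545 in ANS4 alone) and Lifr (0.0597 in BL6 alone, against −0.24 and a gained call, adjusted p = 0.0166, in ANS4 alone). Socs3, which was called, was 0.10 in BL6 alone. Line differences of Socs2 and Socs5 for BMP/FGF against EGF/FGF were −0.0118 and −0.0262 with library size only and −0.26 to 0.34 and −0.0736 to 0.107 with 1 library left out. Those of Cntfr and Lif for BMP/FGF against BMP were −0.0794 to 0.37 and −0.0556 to 0.30, and that of Socs1 for BMP against EGF/FGF −0.17 to 0.0433. The cause was not tested. The log2 fold past 1.5 also moved over all genes: without the filter 323 and in BL6 alone 367 genes passed it for BMP/FGF against BMP, and limma-trend gave 1509, 65 and 1366 in the 3 comparisons.

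The differences between replicates correlated at −0.0711 to 0.0529 between conditions over all tested genes. These include genes with few counts, whose counting noise lowers a correlation, so it cannot show whether replicates of the same number were paired. The replicate block changed no other call of the 10 genes. Ratio differences taken within 1 line moved by more than their SD in at least 1 comparison of every ratio but Cntfr to Il6st, and none of those called changed sign. With 0.5 counts added, 11 ratio comparisons again passed. No gene of the 10 was under the expression filter, so the pseudocounts planned for such genes were not run. Socs1 and Socs2 are limited by depth, at 4 to 66 counts a library.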
